A study of Homo sapiens with 12 samples.

Results

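All 6 libraries of cells carrying an EP300 hairpin (EP300 KD1 and EP300 KD2) were compared with all 6 libraries of cells carrying a non-silencing control hairpin (NS1 and NS2), which takes in 12 of the 12 libraries of the series, 3 per group. The established line MCF10AT was used throughout, a human mammary epithelium transformed by HRas with the G12V substitution, so that the controls carry the oncogene too. Every line had been transduced with lentiviral particles and held in puromycin at 1 µg/ml for 3 days, and messenger RNA was sequenced after TRIzol extraction and stranded TruSeq library preparation. Total counts per library ran from 31396653 to 45606950. Each group is 1 stably transduced line, and the labels do not say that its 3 libraries came from separate cultures, so that p-values measure only the spread of these libraries, possibly a technical one. Of 29094 transcript rows, 13424 passed the low-count filter, and each row is called a gene below. The basal mammary markers KRT5 and TP63 and the epithelial markers CDH1 and EPCAM were present in every library. Of the 12 mammary epithelial markers looked at, KRT14 and KRT8 had few counts, 197 and 1097 over all 12 libraries, beside 533819 for KRT18. How reads with several hits were counted is not stated, so the low counts of KRT14 and KRT8 are uncertain. The library labels were not contradicted by EP300 itself, and on a first principal component holding 65.7% of the variance of the 2000 most variable genes the 6 control libraries lay between -35.0 and -27.7 and the 6 EP300 hairpin libraries between 27.0 and 36.1.

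EP300 encodes p300, a lysine acetyltransferase that DNA-bound factors recruit to promoters and enhancers, where it acetylates histones H3 and H4 and holds other coactivators. CREBBP encodes its close paralogue CBP, which shares the acetyltransferase domain, the bromodomain and many partners. In epithelial cells p300 is known to serve factors as different as p53, HIF1A, the SMADs, NF-kB, AP-1 and STAT proteins.

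EP300 (NM_001429, chromosome 22, 41092592 to 41180077, hg38) stood at 171, 177 and 167 CPM in the 3 NS1 libraries and at 165, 180.3 and 177 CPM in the 3 NS2 libraries, where CPM are counts scaled by TMM to library size. The EP300 KD1 libraries gave 108, 106 and 108 CPM, and those of EP300 KD2 gave 95.1, 99.9 and 92.3. No knockdown library reached the lowest control library. EP300 KD1 kept 62.4% ± 0.51 and EP300 KD2 55.0% ± 2.22 of the level of their own controls (SD, n = 3 libraries each). The 6 together kept 58.7% ± 4.28 (SD, n = 6 libraries), a spread that takes in the gap between the 2 lines. The pooled model, which fits 1 knockdown effect over all 12 libraries with the set number 1 or 2 as a block, put EP300 at -0.77 ± 0.04 on the log2 scale (SE, edgeR adjusted p = 5.7e-09). CREBBP overlapped between the groups, from 94.9 to 102 CPM in the controls and from 93.7 to 102 with an EP300 hairpin, and did not pass (-0.05 ± 0.03 on the log2 scale, edgeR adjusted p = 0.157).

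Both hairpins moved a large set of genes the same way. Of 13424 genes tested, 6788 (50.6%) passed the pooled test at an adjusted p of 0.05, with 3361 higher (25%) and 3427 lower (25.5%). A gene was counted in the common response when it passed the pooled test and also passed, in the same direction, in EP300 KD1 against NS1 and in EP300 KD2 against NS2, 2 comparisons that share no library. That held for 4380 genes (32.6%), of which 2051 were higher (15.3%) and 2329 lower (17.3%). They make up 50.3% of the 8711 genes called with the first hairpin (64.9% of those tested) and 56.4% of the 7762 called with the second (57.8%, with 27.9% higher and 29.9% lower). A further 1500 genes (11.2% of those tested) were called in both sets but in opposite directions, 738 of them higher with EP300 KD1 and 762 higher with EP300 KD2. Another 2831 genes were called only in the first set and 1882 only in the second, and 2831 in neither.

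**Figure D1:**
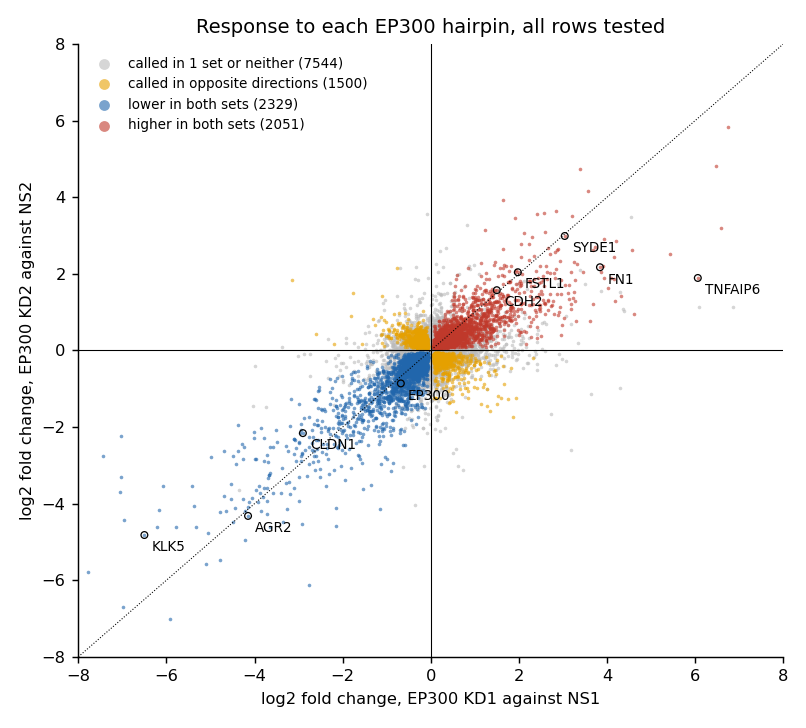
Log2 fold change of each of the 13424 genes with EP300 KD1 against NS1 (horizontal) and with EP300 KD2 against NS2 (vertical), coloured by call at an adjusted p of 0.05, with the dotted line marking equal change. The 4380 genes called the same way lie in the lower left and upper right, with FN1 and TNFAIP6 well to the right of the line and SYDE1, FSTL1, CDH2 and AGR2 close to it.

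Most changes were small. Without regard to sign, the median log2 change of a gene was 0.18 in the pooled fit, 0.24 with the first hairpin and 0.20 with the second, against 0.10 between the 2 controls. Among the shared changes the median pooled log2 change was 0.42 for gains and -0.43 for losses. When a change beyond 1.5-fold was asked for, 1249 genes passed (9.3%), 560 higher (4.17%) and 689 lower (5.13%). In the common response 276 genes rose and 397 fell at least 2-fold with each hairpin, and 45 rose and 151 fell at least 4-fold with each. Of the shared gains 1648 (80.4%) had every knockdown library above every control library, and of the shared losses 1912 (82.1%) had every knockdown library below. Over all genes tested these shares were 13.3% and 15%, and since the common response was chosen for differing between the same libraries, the 2 sets of shares are no comparison.

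The shared response took a sizeable part of the messenger RNA counted. Genes of the shared losses held 30.7% to 31.6% of the counts of each control library and 24.5% to 25.04% of each EP300 hairpin library. Genes of the shared gains went from between 11.9% and 12.2% of the counts to between 15.8% and 17.1%. Since these genes were chosen for their difference, the shares describe its weight and are no test. Of 11960 protein-coding genes tested 16.3% rose and 18.3% fell in the common response, while 7.82% and 10.0% of 639 long non-coding RNA genes did.

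Sharing a direction did not mean sharing a size. Across all 13424 genes the log2 changes of the 2 sets correlated with Pearson's r = 0.695, a value across genes, which are not independent replicates. The hairpin difference, which is the change with EP300 KD2 minus the change with EP300 KD1, passed the test for 6818 genes (50.8%), 2903 of them positive (21.6%) and 3915 negative (29.2%). With library totals in place of TMM scaling that split turned to 3780 positive and 3117 negative. Within the common response it passed for 947 of the gains (46.2%), of which 748 were larger with EP300 KD1, and for 1072 of the losses (46.0%), of which 654 were larger with EP300 KD2. With library totals, chosen after the values were seen, 791 of 1144 such gains were larger with EP300 KD1 and 495 of 950 such losses with EP300 KD2, so that the losses were then split nearly evenly. For 1405 gains and 1726 losses (68.5% and 74.1%) the whole 95% interval of the hairpin difference lay within 1.5-fold either way. The 2 controls themselves differed for 685 gains (33.4%) and 955 losses (41.0%), beside 27.5% of all genes tested.

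The 10 losses and 10 gains largest in the pooled fit, among genes in which the hairpins matched by a rule, are described gene by gene. The rule took genes of the common response with at least 5 CPM on average. Their hairpin difference was not called, its interval lay within 1.5-fold, and all knockdown libraries lay apart from all control libraries. The match between hairpins and the separation of the groups are thus the rule and not a result, and 1258 genes met it (560 higher and 698 lower). The genes described are the largest changes and not the closest matches. The interval of the hairpin difference was wholly negative for NAV3 (-0.50 to -0.03) and RARRES1 (-0.36 to -0.004). It was wholly positive for FST (0.02 to 0.43) and LCN2 (0.002 to 0.54). AGR2, a protein disulfide isomerase of the endoplasmic reticulum in mucus-secreting epithelium, was at 45.7 to 67.4 (median 57.0) CPM in the controls and at 2.17 to 4.56 (median 2.93) CPM with an EP300 hairpin. It fell by 4.23 on the log2 scale (SE 0.07, edgeR adjusted p = 4.7e-13), the largest such loss. PPARGC1A, a coactivator of mitochondrial biogenesis, was at 13.6 to 17.5 (median 15.2) CPM in the controls and at 0.710 to 1.19 (median 0.828) CPM with a hairpin, and fell by 4.11. All of its knockdown libraries were at or near 1 CPM.

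CAPN8, a calpain protease best known from gastric mucous cells, was at 32.7 to 39.2 (median 35.1) CPM in the controls and at 2.14 to 3.14 (median 2.38) CPM with a hairpin (log2 -3.82 ± 0.07). ART3, of the mono-ADP-ribosyltransferase family, was at 17.4 to 28.1 (median 22.7) CPM in the controls and at 1.21 to 1.83 (median 1.35) CPM with a hairpin (log2 -3.96 ± 0.06). SRGAP3, a GTPase-activating protein for Rac, was at 92.7 to 111 (median 100.3) CPM in the controls and at 12.5 to 14.95 (median 13.1) CPM with a hairpin (log2 -2.91 ± 0.04). The 2 groups had to be apart by the rule, and in each of these genes the spread inside a group was small beside the gap. RARRES1, a retinoic acid-responsive gene, was at 122 to 165 (median 145) CPM in the controls and at 15.1 to 23.7 (median 20.2) CPM with a hairpin (log2 -2.86 ± 0.06). PLAC8 was at 108 to 119.8 (median 114) CPM in the controls and at 16.4 to 19.7 (median 18.2) CPM with a hairpin (log2 -2.65 ± 0.04). The lipocalin LCN2, a carrier of iron-binding siderophores, was at 26.2 to 45.3 (median 37.0) CPM in the controls and at 4.12 to 6.48 (median 5.63) CPM with a hairpin (log2 -2.73 ± 0.08). KRT15 and NCCRP1 complete the 10, with log2 changes of -4.20 and -2.69. All 10 passed with edgeR adjusted p of at most 5.8e-10.

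**Figure D2:**
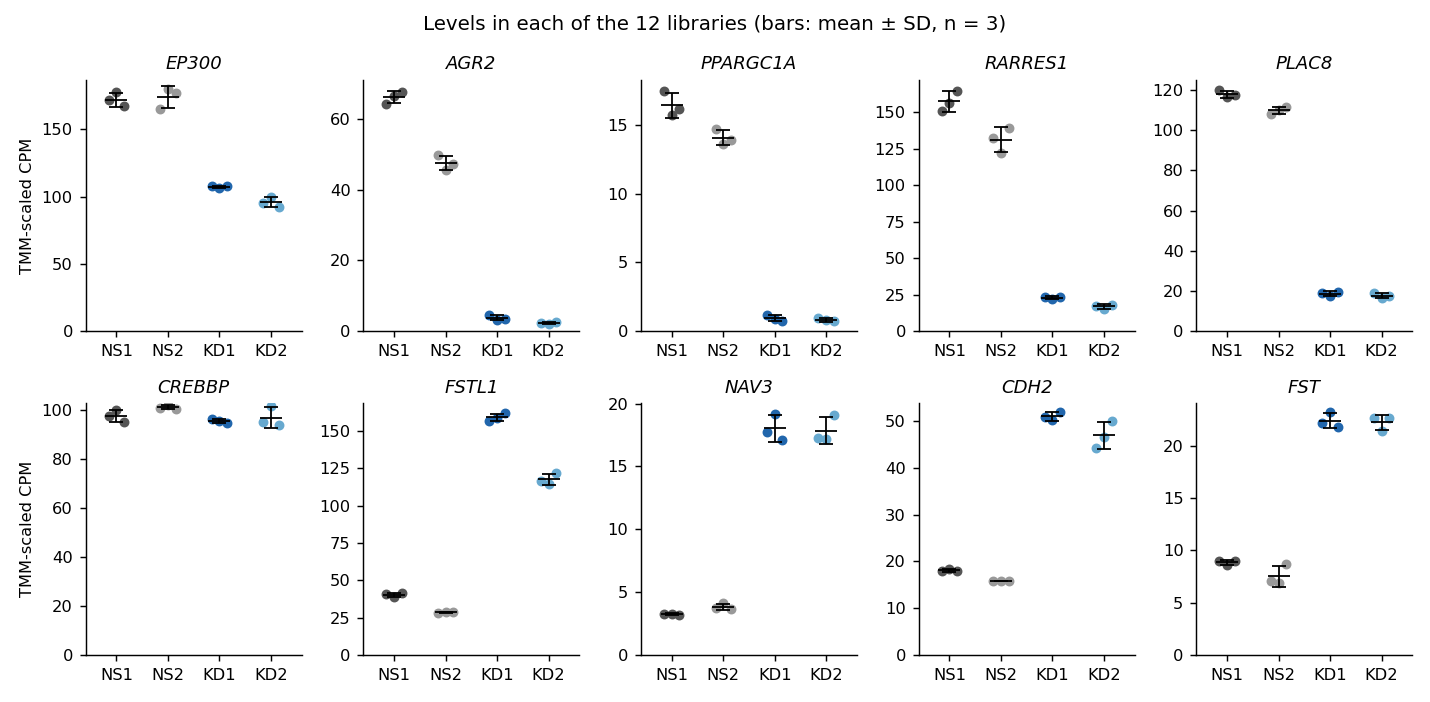
TMM-scaled CPM of 10 genes in each of the 12 libraries, on linear axes from 0, with points for libraries and bars for the mean ± SD of each group (n = 3). EP300 sits at 92.3 to 108 with a hairpin against 165 to 180 in the controls, CREBBP overlaps, AGR2, PPARGC1A, RARRES1 and PLAC8 are low in all 6 hairpin libraries, and FSTL1, NAV3, CDH2 and FST are high in all 6.

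Among the matched gains FSTL1, a secreted glycoprotein of the follistatin family, was at 28.2 to 41.6 (median 33.9) CPM in the controls and at 114 to 162 (median 139) CPM with an EP300 hairpin (log2 2.01 ± 0.03, edgeR adjusted p = 8.6e-14). CDH2, which encodes N-cadherin, was at 15.7 to 18.4 (median 16.9) CPM in the controls and at 44.2 to 52.0 (median 50.1) CPM with a hairpin (log2 1.53 ± 0.03). For CDH2, as the rule required, every hairpin library stood above every control library. NAV3, a microtubule-binding neuron navigator protein, was at 3.16 to 4.12 (median 3.49) CPM in the controls and at 17.1 to 19.2 (median 17.5) CPM with a hairpin (log2 2.34 ± 0.07). SYDE1, a GTPase-activating protein, was at 0.843 to 1.29 (median 1.15) CPM in the controls and at 6.81 to 11.2 (median 9.15) CPM with a hairpin (log2 3.02 ± 0.09), the largest gain of the matched set. FST, whose product follistatin binds and blocks activins, was at 6.89 to 9.03 (median 8.64) CPM in the controls and at 21.4 to 23.2 (median 22.5) CPM with a hairpin (log2 1.45 ± 0.06).

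By the rule of choice, neither group overlapped the other in any of these genes. The other 5 were the methionine sulfoxide reductase MSRB3 (log2 1.80 ± 0.05), the alpha-tubulin TUBA1A (1.78 ± 0.07), the membrane scaffold MPP1 (1.502 ± 0.07), the metalloreductase STEAP2 (1.41 ± 0.05) and the WASP-interacting protein WIPF1 (1.37 ± 0.07). TUBA1A shares sequence with other alpha-tubulin genes, so its counts are uncertain. With library totals in place of TMM scaling the hairpin difference of FSTL1, FST and LCN2 passed the test (edgeR adjusted p = 0.024, 0.017 and 0.033), an alternative chosen after the values were seen.

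The 250 bases before the annotated start of 4 genes are shown, because p300 is known to be brought to promoters by factors such as AP-1: CAPN8 and LCN2 fell, FSTL1 rose, and TNFAIP6, which binds hyaluronan in inflamed matrix, rose with both hairpins as described further on. The sequences are RefSeq's on GRCh38.p14, written 5′ to 3′ on the strand of the gene: CAPN8 chr1:223665702-223665951 (minus strand), LCN2 chr9:128149203-128149452 (plus), FSTL1 chr3:120450993-120451242 (minus) and TNFAIP6 chr2:151357342-151357591 (plus). Capitals mark matches to TGANTCA, the AP-1 motif, searched on both strands together with TATAAA.
CAPN8: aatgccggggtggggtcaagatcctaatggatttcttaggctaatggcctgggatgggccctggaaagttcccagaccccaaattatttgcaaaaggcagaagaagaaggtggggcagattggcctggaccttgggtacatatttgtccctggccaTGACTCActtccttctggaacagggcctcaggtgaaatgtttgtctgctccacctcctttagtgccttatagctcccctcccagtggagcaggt
LCN2: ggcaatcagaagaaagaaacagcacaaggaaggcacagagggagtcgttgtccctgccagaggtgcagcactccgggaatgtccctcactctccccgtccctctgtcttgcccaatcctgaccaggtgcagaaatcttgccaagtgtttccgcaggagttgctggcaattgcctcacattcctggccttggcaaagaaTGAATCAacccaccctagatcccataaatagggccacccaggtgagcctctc
FSTL1: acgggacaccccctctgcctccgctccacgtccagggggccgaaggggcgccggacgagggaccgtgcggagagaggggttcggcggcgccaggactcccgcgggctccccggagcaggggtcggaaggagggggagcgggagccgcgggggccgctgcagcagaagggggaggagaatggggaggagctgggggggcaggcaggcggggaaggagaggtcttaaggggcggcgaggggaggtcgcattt
TNFAIP6: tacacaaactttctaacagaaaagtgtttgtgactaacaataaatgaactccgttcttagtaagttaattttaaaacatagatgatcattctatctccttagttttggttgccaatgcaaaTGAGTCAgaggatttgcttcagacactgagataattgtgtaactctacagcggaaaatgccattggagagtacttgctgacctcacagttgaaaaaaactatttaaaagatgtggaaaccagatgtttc
TGANTCA occurred 94 to 88 bases before the start in CAPN8, 52 to 46 in LCN2 and 129 to 123 in TNFAIP6, and not in this window of FSTL1. The LCN2 match has A at its centre and is not of the stricter AP-1 form, unlike those of CAPN8 and TNFAIP6. TATAAA was in none of the 4. Of 35116 such windows in the table, 6.57% hold TGANTCA and 10.7% TATAAA. The FSTL1 window holds 24 CpG dinucleotides, against 1 in CAPN8, 4 in LCN2, 2 in TNFAIP6 and a median of 11 over all windows. Of 7 genes searched, AGR2, SYDE1 and FN1 are not shown and held neither motif, so TGANTCA was in 3 of 7, a description of letters only. A comparison of whole classes was void, because a window was given for 74.9% of the shared gains and 71.5% of the shared losses beyond 1.5-fold, under the 80% required.

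The genes with the largest differences in mean CPM follow. Differences in CPM are not corrected for length, and are given per gene without ranking one gene's level against another's. KRT5, the basal keratin, was at 2687 to 3399.6 (median 3058) CPM in the controls and at 1378 to 1689 (median 1537) CPM with an EP300 hairpin (log2 -0.98 ± 0.08). SLC7A5, an importer of large neutral amino acids, was at 1296 to 1627 (median 1501) CPM in the controls and at 586 to 846 (median 721) CPM with a hairpin (log2 -1.07 ± 0.05). DDIT4, a stress-induced inhibitor of mTORC1, and the brain-type glycogen phosphorylase PYGB fell as well (log2 -0.38 ± 0.04 and -0.72 ± 0.07).

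On the rising side MT2A, a metallothionein that buffers zinc and copper, was at 1957 to 2116 (median 2087) CPM in the controls and at 3574 to 4186 (median 4043) CPM with a hairpin (log2 0.93 ± 0.04). TIMP1, an inhibitor of matrix metalloproteinases, was at 384 to 427 (median 402) CPM in the controls and at 1339 to 2510.2 (median 1784) CPM with a hairpin (log2 2.13 ± 0.14). VIM, the mesenchymal intermediate filament vimentin, was at 536 to 624 (median 579) CPM in the controls and at 1494 to 2223 (median 1827) CPM with a hairpin (log2 1.64 ± 0.10). In all 3 the groups were apart, and the TIMP1 values of the hairpin libraries spread widely, with EP300 KD1 above EP300 KD2. The matrix protein gene TGFBI and the chaperone HSPA8 also rose (log2 0.99 ± 0.13 and 0.36 ± 0.06).

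The gene lists described from here on hold 771 entries in 31 lists, of which 639 were tested, 102 did not pass the low-count filter and 30 had several rows for their symbol. Counts are over tested members and are descriptions, since a gene that is low in one group may pass the low-count filter through the other group alone. Counts in the common response stand beside 15.3% of all genes higher and 17.3% lower, and opposite calls beside 11.2%.

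Genes of the epithelial state fell together. Fewer epithelial-type cells and less RNA per cell cannot be told apart in these bulk libraries. Of 25 luminal and secretory genes 15 were tested, and each of these 15 fell in the pooled test, against 25.5% of all genes, and 14 fell in the common response, with a median log2 change of -2.25. GCNT3, a mucin-type glycosyltransferase, was at 21.3 to 38.5 (median 29.4) CPM in the controls and at 0.895 to 1.39 (median 1.30) CPM with a hairpin (log2 -4.51 ± 0.11). Of 29 kallikrein and cornified envelope genes 20 were tested, and 17 fell and 2 rose in the pooled test, and 14 fell and none rose in the common response. KLK5, a serine protease of the skin and its glands, was at 17.4 to 34.9 (median 24.98) CPM in the controls and at 0.258 to 0.710 (median 0.472) CPM with a hairpin (log2 -5.604 ± 0.22). KLK6 and KLK7 of the same family fell by 5.22 and 5.01 on the log2 scale. The 2 members that rose were SBSN and PI3, each called with 1 hairpin only.

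Junction genes moved the same way by less. Of 24 tight junction and polarity genes 21 fell and none rose in the pooled test, 20 of them in the common response (median -0.44). CLDN1, a claudin that seals tight junctions, was at 215 to 269 (median 241) CPM in the controls and at 32.3 to 50.5 (median 41.7) CPM with a hairpin (log2 -2.53 ± 0.12). The zonula occludens protein TJP3 and cingulin, CGN, fell by 2.19 and 0.96. Of 17 adherens junction and desmosome genes 12 fell and 2 rose in the common response (median -0.29). CDH1, which encodes E-cadherin, was at 373 to 388 (median 379) CPM in the controls and at 179.7 to 212 (median 197) CPM with a hairpin (log2 -0.96 ± 0.03, edgeR adjusted p = 2.7e-10), so that E-cadherin fell where N-cadherin rose. The desmosomal DSG3 and PERP fell by 0.98 and 0.69, while CTNNB1, which encodes beta-catenin, rose by 0.14 and NECTIN2 by 0.14.

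Among transcription factors of epithelium 14 of 17 fell in the pooled test and 13 in the common response, and none rose (median -0.84). KLF4, a factor of barrier differentiation, was at 51.5 to 57.1 (median 55.9) CPM in the controls and at 22.3 to 25.5 (median 23.8) CPM with a hairpin (log2 -1.21 ± 0.04). GRHL2, a grainyhead-like activator of junction genes, fell by 1.05, and TRIM29, a basal epithelial TRIM protein, by 1.29. GRHL3 was called in opposite directions. Of 20 basal keratin and basal mammary genes 11 fell and 1 rose in the common response, and 6 were called in opposite directions (median -0.39 in the pooled fit, -0.19 with EP300 KD1 and -0.85 with EP300 KD2). KRT17 was at 577 to 726 (median 649) CPM in the controls and at 145 to 309.9 (median 221) CPM with a hairpin (log2 -1.61 ± 0.11). The 6 with opposite calls were KRT6A, KRT6B, ITGA6, LAMA3, LAMB3 and ACTA2, each higher with EP300 KD1 and lower with EP300 KD2. Among the keratins, KRT14, KRT16 and KRT17 share sequence with pseudogenes and with each other, so their separate counts are uncertain.

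**Figure D3:**
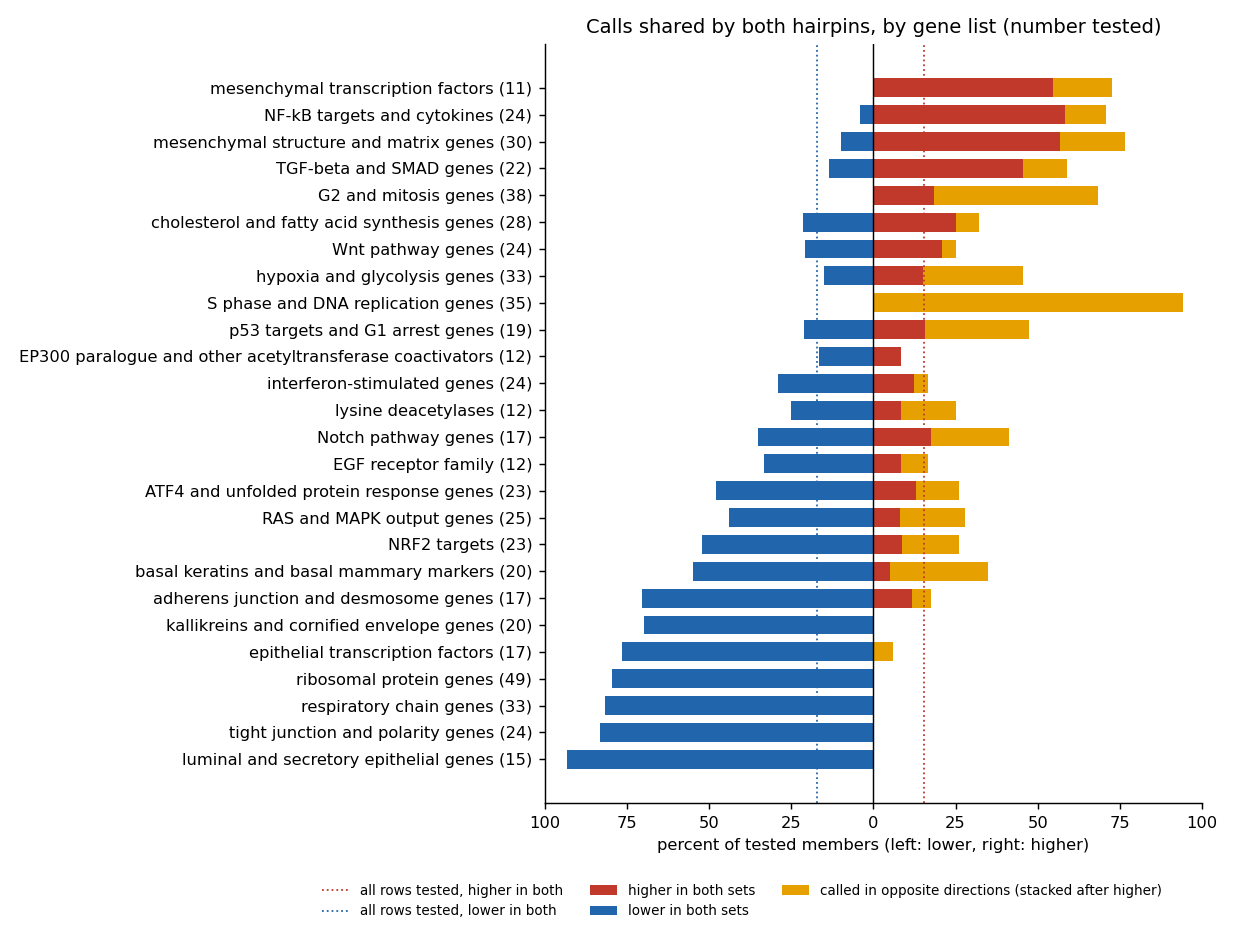
For each gene list with at least 10 tested members, the percent of members lower in both sets (left, blue), higher in both sets (right, red) and called in opposite directions (orange, stacked after the higher bar), with the number tested in brackets. Dotted lines mark the 17.3% and 15.3% of all genes tested: luminal, junction, respiratory chain and ribosomal lists lie far to the left, mesenchymal and NF-kB lists to the right, and 33 of 35 S phase genes are orange.

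Mesenchymal regulators and matrix genes rose more often than they fell. Of 11 mesenchymal transcription factors 8 rose and none fell in the pooled test, and 6 rose in the common response (median 0.53), against 25% and 15.3% of all genes. ZEB1, a repressor of E-cadherin, was at 1.98 to 2.86 (median 2.19) CPM in the controls and at 7.34 to 12.8 (median 9.30) CPM with a hairpin (log2 2.05 ± 0.10). SNAI1, of the same function, and ETS1 rose by 0.99 and 0.56. SNAI2 and FOSL1 were called in opposite directions. Of 30 mesenchymal structure and matrix genes 17 rose and 3 fell in the common response, with a median of 0.77 in the pooled fit, 1.17 with EP300 KD1 and 0.45 with EP300 KD2. Another 6 were called in opposite directions, and with EP300 KD2 alone 18 of the 30 were called higher and 9 lower. FN1, the gene of fibronectin, was at 74.9 to 90.8 (median 83.3) CPM in the controls and at 387 to 1198 (median 751) CPM with a hairpin (log2 3.01 ± 0.26).

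The lowest FN1 value with a hairpin was still above every control, and the 3 EP300 KD1 libraries lay above the 3 of EP300 KD2. TIMP3, a metalloproteinase inhibitor of the same family as TIMP1, went the other way, from 138 to 159.5 (median 147) CPM in the controls to 31.1 to 38.1 (median 34.5) CPM with a hairpin (log2 -2.09 ± 0.06), and THBS1 and MMP2 were the other two that fell. COL6A1, LOX, ITGAV, CD44, MMP14 and PLAUR were higher with EP300 KD1 and lower with EP300 KD2. The fibroblast markers DCN and C1R rose by 1.97 and 1.96, while FBLN1 fell by 1.69, and COL1A2, COL3A1, LUM and PDPN had no counts. The summed level of the 12 fibroblast markers ran from 71.6 to 97.0 CPM in the controls and from 77.2 to 158 CPM with a hairpin, and its part in these results was not tested.

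TGF-beta genes moved in both directions. Of 22 tested, 10 rose and 3 fell in the common response, and the median pooled log2 change was 0.03. Among the ligands, TGFB1 was at 26.8 to 28.7 (median 27.5) CPM in the controls and at 63.2 to 120.5 (median 88.7) CPM with a hairpin (log2 1.64 ± 0.13). TGFB2 was at 48.8 to 52.1 (median 50.3) CPM in the controls and at 9.26 to 13.5 (median 11.1) CPM with a hairpin (log2 -2.19 ± 0.06), and TGFB3 fell too. The 2 ligands were thus apart between the groups in opposite directions. LTBP1, which tethers latent TGF-beta to matrix, rose by 1.53, and of the SMADs SMAD4 rose by 0.23 and SMAD2 fell by 0.11 on the log2 scale.

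Inflammatory genes of the NF-kB group rose more often than they fell. Of 24 tested, 18 rose and 2 fell in the pooled test, and 14 rose and 1 fell in the common response, with the hairpin difference called for 13 of these 15. The median log2 change was 0.72 in the pooled fit, 1.18 with EP300 KD1 and 0.12 with EP300 KD2. TNFAIP6 was at 0.309 to 0.922 (median 0.440) CPM in the controls and at 2.66 to 25.3 (median 12.03) CPM with a hairpin (log2 4.16 ± 0.58). IL6, the cytokine interleukin 6, was at 1.39 to 2.88 (median 1.83) CPM in the controls and at 6.88 to 14.3 (median 10.4) CPM with a hairpin (log2 2.42 ± 0.23). ICAM1, an adhesion receptor for leukocytes, rose by 1.72. No knockdown library of these 3 genes reached down to a control library. REL, which encodes the subunit c-Rel, was the member that fell (log2 -0.21 ± 0.05).

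Interferon-stimulated genes showed no common direction. Of 24 tested, 3 rose and 7 fell in the common response (median -0.07), beside 15.3% and 17.3% of all genes. OAS1, a sensor enzyme of double-stranded RNA, was at 17.2 to 24.6 (median 20.7) CPM in the controls and at 4.81 to 6.39 (median 5.89) CPM with a hairpin (log2 -1.86 ± 0.05). The guanylate-binding protein GBP2 fell by 1.33. RIGI, a cytoplasmic receptor of viral RNA, rose by 0.56, and ISG15 rose too.

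Of 23 ATF4 and unfolded protein response genes 11 fell and 3 rose in the common response, and 3 were called in opposite directions. The median log2 change was -0.37 in the pooled fit, -0.01 with EP300 KD1 (10 higher and 11 lower) and -0.47 with EP300 KD2 (4 higher and 15 lower). CHAC1, an enzyme that degrades glutathione, was at 36.9 to 43.5 (median 42.9) CPM in the controls and at 7.81 to 12.5 (median 9.96) CPM with a hairpin (log2 -2.03 ± 0.10). DDIT3, which encodes CHOP, and ATF3 fell by 1.51 and 1.42. The 3 that rose were SDF2L1 (log2 0.28 ± 0.07), HSP90B1 and MANF, which all serve protein folding inside the endoplasmic reticulum, whereas those that fell include the amino acid enzymes ASNS, PSAT1 and PHGDH. Of 23 NRF2 targets 12 fell and 2 rose, and 4 were called in opposite directions. Their median was -0.16 in the pooled fit, -0.09 with EP300 KD1 and -0.40 with EP300 KD2. AKR1B10, an aldo-keto reductase, was at 38.1 to 48.7 (median 43.0) CPM in the controls and at 8.55 to 14.6 (median 10.5) CPM with a hairpin (log2 -1.99 ± 0.13). SLC7A11, the cystine importer, fell by 1.30, while FTL, which encodes ferritin light chain, rose by 0.77, as did HMOX1.

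Genes of energy metabolism and translation shifted little but together. Of 33 respiratory chain genes 32 fell and none rose in the pooled test, and 27 fell in the common response, with a median log2 change of -0.20. COX5B, a subunit of cytochrome c oxidase, was at 119.9 to 158 (median 141) CPM in the controls and at 89.0 to 110.3 (median 99.9) CPM with a hairpin (log2 -0.51 ± 0.06), and the complex III subunits UQCRC2 and UQCRC1 fell by 0.35 and 0.33. Of 49 ribosomal protein genes 43 fell and none rose in the pooled test, and 39 fell in the common response (median -0.17). RPS2, RPL12 and RPL22 fell by 0.27, 0.27 and 0.26. Such genes have many processed pseudogenes, so single values are uncertain. With library totals in place of TMM scaling 27 respiratory chain and 38 ribosomal protein genes fell, and again none rose.

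Lipid and sugar metabolism had no single direction. Of 28 cholesterol and fatty acid synthesis genes 7 rose and 6 fell in the common response, beside 15.3% and 17.3% of all genes. INSIG1, a sterol-regulated brake on SREBP processing, was at 126 to 136 (median 133) CPM in the controls and at 179 to 247 (median 214) CPM with a hairpin (log2 0.69 ± 0.06), and the isomerase IDI1 rose by 0.48. SREBF1, the gene of the SREBP1 factors, fell by 0.65. Of 33 hypoxia and glycolysis genes 5 rose, 5 fell and 10 were called in opposite directions, the last beside 11.2% of all genes. ENO2, a neuronal-type enolase, was at 2.24 to 2.77 (median 2.45) CPM in the controls and at 9.17 to 18.9 (median 13.7) CPM with a hairpin (log2 2.43 ± 0.12). The glucose carrier SLC2A3 rose by 2.28 and NDRG1 by 1.34, joined by BNIP3 and PFKFB3. EGLN3, a prolyl hydroxylase of HIF, fell by 0.84, at 1.02 to 3.86 (median 1.92) CPM in the controls and 0.412 to 2.26 (median 1.08) CPM with a hairpin, groups that overlapped. SLC2A1, PFKL, ALDOA and PKM were the others that fell. All 10 with opposite calls, HIF1A and VEGFA among them, were higher with EP300 KD1 and lower with EP300 KD2.

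Output genes of RAS signalling moved in both directions, in cells that all carry the activated HRas. Of 25 RAS and MAPK output genes 11 were called higher and 12 lower with EP300 KD1, and 3 higher and 16 lower with EP300 KD2. In the common response 11 fell and 2 rose, beside 17.3% and 15.3% of all genes, and 5 were called in opposite directions, with a median pooled log2 change of -0.02 that turned to 0.01 with library totals. DUSP4, a phosphatase that switches off ERK, was at 484 to 518 (median 503) CPM in the controls and at 265 to 328 (median 297) CPM with a hairpin (log2 -0.77 ± 0.05). EGR1, an immediate early factor, was at 107 to 113 (median 109) CPM in the controls and at 161 to 181 (median 169) CPM with a hairpin (log2 0.62 ± 0.03), and JUN rose as well. Of 12 EGF receptor family genes 4 fell and 1 rose. Among the ligands HBEGF and NRG4 fell by 1.496 and 1.44 and BTC rose by 0.94. The receptor ERBB3 fell, and ERRFI1, an inhibitor of the receptors, fell by 0.78.

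Of 17 Notch pathway genes 6 fell and 3 rose in the common response, beside 17.3% and 15.3% of all genes. Another 4 were called in opposite directions, beside 11.2%. The median log2 change was -0.08 with EP300 KD1 and -0.32 with EP300 KD2. The ligand JAG1 was at 166 to 196 (median 182) CPM in the controls and at 91.6 to 114 (median 101.0) CPM with a hairpin (log2 -0.84 ± 0.06). The receptor NOTCH1 fell by 0.50, and NOTCH2 and NRARP rose. Of the coactivators that bridge Notch to p300, MAML2 fell by 0.56 and MAML1 rose by 0.31. Of 24 Wnt pathway genes 5 rose and 5 fell, near the shares of all genes. The ligand WNT7B fell by 1.27 and the secreted antagonist SFRP1 from 259 to 371 (median 313) CPM in the controls to 141 to 201 (median 176) CPM with a hairpin (log2 -0.84 ± 0.03), while the receptor FZD2 rose by 0.57. LRP5, TCF7L2 and RNF43 also fell, and WNT5A, DKK3, LEF1 and TCF7L1 also rose.

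Of 12 acetyltransferase coactivators other than EP300, CREBBP included, 1 rose and 2 fell in the common response, a count near the 15.3% and 17.3% of all genes. NCOA2, a nuclear receptor coactivator, rose by 0.20, and KAT6B and CITED4 fell by 0.18 and 0.32. Of 12 lysine deacetylases 3 fell and 1 rose, and 2 were called in opposite directions. HDAC9 was at 8.56 to 10.4 (median 10.01) CPM in the controls and at 3.02 to 5.28 (median 3.88) CPM with a hairpin (log2 -1.31 ± 0.11). SIRT7 and SIRT3 fell by 0.29 and 0.15 and SIRT1 rose by 0.17.

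S phase genes moved in opposite directions with the 2 hairpins. Of 35 S phase and DNA replication genes 33 were called in opposite directions, against 11.2% of all genes, all of them lower with EP300 KD1 and higher with EP300 KD2, and the median log2 change was -0.67 with the first hairpin and 0.43 with the second. None was in the common response, and in the pooled test 1, E2F2, fell and none rose. GINS1, a subunit of the replicative helicase, was at 31.4 and 31.1 CPM in NS1 and NS2 and at 18.6 and 49.7 in EP300 KD1 and EP300 KD2 (means of 3 libraries, SD 0.619, 1.07, 1.27 and 2.16 in the same order). The DNA polymerase epsilon subunit POLE2 showed log2 changes of -0.71 and 0.71. The pooled estimates of both were near 0 (-0.02 ± 0.21 and 0.02 ± 0.21) and describe neither line. Of 38 G2 and mitosis genes 7 rose in the common response, none fell and 19 were called in opposite directions, 18 of them lower with EP300 KD1. The checkpoint kinase BUB1, CKAP2 and the phosphatase CDC25C rose by 0.41, 0.37 and 0.31.

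Of 19 p53 target and G1 arrest genes 3 rose and 4 fell, near the 15.3% and 17.3% of all genes, and 6 were called in opposite directions, beside 11.2%. GDF15, a stress cytokine, was at 67.3 to 81.5 (median 79.6) CPM in the controls and at 32.3 to 37.0 (median 34.7) CPM with a hairpin (log2 -1.15 ± 0.05), and SESN2 fell by 0.95, along with PMAIP1 and TP53I3. The inhibitor of CDK4 and CDK6 CDKN2C rose by 0.34, along with CDKN1A and SESN1.

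Among genes of at least 5 CPM on average, the largest opposite changes outside the cell cycle were in the lipoxygenase ALOX15B (log2 1.34 with EP300 KD1 and -1.57 with EP300 KD2), the formyl peptide receptor FPR1 (1.94 and -1.24) and the endocytic receptor LRP1 (0.98 and -0.95). CCN2, a target of TGF-beta and YAP, went from -1.01 with EP300 KD1 to 0.74 with EP300 KD2. Its mean was 18.4 CPM in NS1, 8.41 in NS2, 9.19 in EP300 KD1 and 14.1 in EP300 KD2. The opposite signs of CCN2 therefore rest on pairing each hairpin with the control of its number. Selection of the genes of this paragraph rested on these opposite calls. The pooled model took the disagreement into its residual, and its common biological coefficient of variation was 0.0883, against 0.0300 when each group had its own mean.

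Shared changes also lay next to each other on chromosomes. Of 12198 tested genes placed once on a chromosome, 1139 (9.34%) were in the common response and beyond 1.5-fold, and 67 of them formed 18 runs of 3 or more tested neighbours with the same direction, 14 lower and 4 higher. These runs were looked for after the gene lists had been described, and several are families of one ancestry. The longest held KRT10, KRT13, KRT15, MIR6510, KRT19, KRT14, KRT16 and KRT17 on chromosome 17 (40818117 to 41624575), with pooled log2 changes between -4.20 and -0.83. MIR6510 lies within the keratin array and its reads cannot be told apart from those of its host. On chromosome 19 KLK5, KLK6, KLK7, KLK9 and KLK10 (50943303 to 51020097) had log2 changes between -5.604 and -4.83. Some members of these runs were near the floor. KLK9, with the change of -4.83, averaged 0.377 CPM in the controls and 0.00854 with a hairpin. MIR6510, KRT14 and KRT13 averaged 0.386, 0.774 and 1.64 CPM in the controls and 0.0358, 0.147 and 0.103 with a hairpin. Such members may have passed the low-count filter through the controls alone.

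On chromosome 3 the run TPRG1, TP63, P3H2, CLDN16 and CLDN1 (188997227 to 190412138) joined genes of several families, among them the basal master regulator TP63 and the claudins, with log2 changes between -2.53 and -0.97. On chromosome 1 the peptidylarginine deiminases PADI2, PADI1, PADI3 and PADI4 (17066761 to 17364004), which convert arginine to citrulline, had log2 changes between -3.42 and -2.27, and CYP4B1, the pseudogene CYP4Z2P, CYP4X1 and CYP4Z1 of a cytochrome P450 family fell further along (46799046 to 47118318). CYP4Z2P was near the floor, with means of 0.308 CPM in the controls and 0.0644 with a hairpin. IFITM10, CTSD, SYT8 and TNNI2 fell together on chromosome 11 (1732406 to 1841678). Higher runs were fewer: CCL20, DAW1, PID1 and DNER on chromosome 2 (227813842 to 229714555), the acute phase genes SAA4, SAA2 and SAA1 on chromosome 11, NFE2, ZNF385A and ITGA5 and MSRB3, RPSAP52 and HMGA2 on chromosome 12. The 1.5-fold bound was set on the pooled change, not on each hairpin. Log2 changes with EP300 KD1 and EP300 KD2 were 2.42 and 0.33 for SAA1, 2.51 and 0.37 for NFE2 and 2.04 and 0.48 for ITGA5. For these genes the hairpin difference was called. It was not called for MSRB3 (1.80 and 1.80) and RPSAP52 (0.87 and 0.91). SAA1 and SAA2 are near-identical, so their counts are uncertain.

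**Figure D4:**
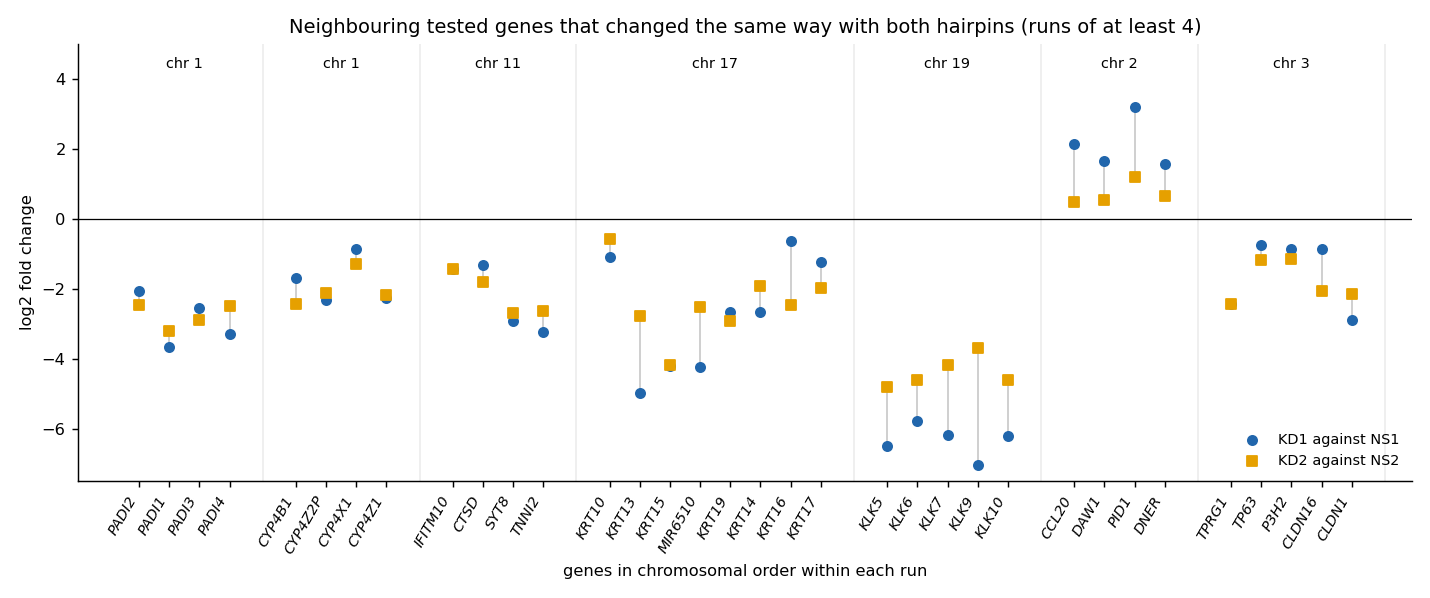
Log2 fold change with EP300 KD1 against NS1 (circles) and EP300 KD2 against NS2 (squares) for the 7 runs of at least 4 neighbouring tested genes in the common response beyond 1.5-fold, genes in chromosomal order. In 6 runs every point is below 0, with the KLK genes lower with EP300 KD1 throughout, and in the run on chromosome 2 every point is above 0 and higher with EP300 KD1.

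By chromosome the shared gains ran from 9.46% of the genes tested on chromosome 19 to 21.6% on chromosome 9, and the shared losses from 13.97% on chromosome 15 to 27.1% on chromosome 18, leaving out Y with 1 gene tested.

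Markers of other cell types ran from nearly absent to well detected. PTPRC had 3 counts and CD3E 1 count over all 12 libraries, and CDH5 31 and VWF 18. The 16 leukocyte markers summed to 58.4 to 73.7 CPM in the controls and 47.3 to 92.2 CPM with a hairpin, the 8 endothelial markers to 28.8 to 40.6 and 6.40 to 15.7 CPM, and the 14 neural-type markers to 45.4 to 66.6 and 124 to 135 CPM. The endothelial and neural-type sums did not overlap between the groups, and the part of these markers in the results was not tested. The endothelial sum was mostly PECAM1, with 5 of the 8 markers under 0.1 CPM on average. Of 3 endothelial markers tested 2 rose and 1 fell in the pooled test, beside 25% and 25.5% of all genes. TEK was at 0.117 to 0.400 CPM in the controls and at 0.802 to 4.59 CPM with a hairpin. The neural-type sum was mostly TUBB3 and ENO2, with 9 of the 14 markers under 0.1 CPM. TUBB3, a neuronal-type tubulin, was at 40.3 to 55.8 CPM in the controls and at 98.8 to 121 CPM with a hairpin. The leukocyte marker CD14 was at 40.3 to 50.7 and 15.4 to 30.2 CPM, and PECAM1, an endothelial adhesion molecule, at 27.9 to 40.1 and 4.97 to 10.3 CPM. FAP of the fibroblast list was at 34.9 to 42.8 CPM in the controls and 34.1 to 52.8 CPM with a hairpin. On the log2 scale PECAM1 fell by 2.20, CD14 fell by 1.13, CD68 rose by 1.02, CORO1A rose by 1.09 and TUBB3 rose by 1.251. The 12 mammary epithelial markers summed to 8559 to 9947 CPM in the controls and 5466 to 6560 CPM with a hairpin.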

How the data were processed

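Messenger RNA of 12 MCF10AT libraries was sequenced. Per the submitters' processing notes, HISAT2 2.1.0 and featureCounts were used by the authors with hg38. Annotation release, strandedness and treatment of reads with several hits are not stated there. What the authors deposited are raw counts, whole numbers per RefSeq transcript row. Of 29094 rows, 28134 were named from a RefSeq gene table and 485 from GENCODE, and 475, with 0.313% of counts, had no symbol. The 2300 symbols held by several rows carry 0.934% of counts and are uncertain. Total counts ran from 31396653 to 45606950 per library.

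Groups came from the labels, which leave each hairpin's control unnamed, and NS1 served for EP300 KD1 and NS2 for EP300 KD2. Replicates differed by more than sampling noise in every pair (chi-square per degree of freedom 1.81 to 4.31) and were all kept. In R 4.3.3, edgeR 4.0.16 filtered rows with filterByExpr at its defaults, scaled libraries by TMM and fitted quasi-likelihood models with Benjamini-Hochberg adjustment over the 13424 rows tested and a threshold of 0.05: a pooled model with the set number as a block, its glmTreat test beyond 1.5-fold, and a model with 1 mean per group for each hairpin against its control, their difference and the controls. Standard errors came from the test statistic. Libraries of 1 line entered as independent samples. The gene lists and the comparison were chosen with earlier results of these data known, and lists are given by counts and medians without a test. Replicate numbers did not pair the libraries. Alternatives were other scalings, filters, models and controls, limma 3.58.1 (voom), DESeq2 1.42.0, a replicate block and leaving out each library.

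On simulated counts for this comparison (13181 rows) the pooled test called 100% of rows changed 1.25-fold or more and 0.0539% of unchanged rows, while the common response included 82% of those changed 1.25-fold, 90% of those changed 1.5-fold and 100% of the rest. The simulation changed 50 rows at each fold, equally with both hairpins, with a biological coefficient of variation of 0.03 for every row. In the data the pooled fit had 0.0883, and the hairpin difference was called for 50.8% of genes. The simulated rates therefore check the code and do not carry over to these data.

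The genes named were EP300 and CREBBP; the 10 gains and 10 losses largest in the pooled fit among genes of the common response with at least 5 CPM on average, separated groups and a hairpin difference that was not called and whose 95% interval lay within 1.5-fold; the 5 gains and 5 losses of the common response with the largest difference in mean CPM; 3 genes in each orientation with the largest opposite changes; and from each list up to 3 members of the common response with the largest smaller change, with up to 1 member against the majority. Genes that complete a small count, and the neighbouring genes, were added outside the rule with their values known. A few genes that the rule names are not reported here.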

Additional observations from a re-analysis of the deposited data

Results flagged for a closer look

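The change with EP300 KD2 minus the change with EP300 KD1 was tested for each of the 121 genes with full statistics, and edgeR called it at an adjusted p of 0.05 for 72 of them, beside 50.8% of all genes tested. Part of these genes were chosen because the difference was called or was not, so the count is a description. Among epithelial, keratin and junction genes, the difference on the log2 scale was negative for KRT5 (-0.55), KRT17 (-0.75), TRIM29 (-0.15), TJP3 (-1.38), CDH1 (-0.20), DSG3 (-0.70) and PERP (-0.20). It was positive for GCNT3 (0.57), KLK5 (1.68), KLK6 (1.16), KLK7 (2.00), CLDN1 (0.74) and GRHL2 (0.14). Mean levels of KLK5, KLK6 and KLK7 were near the floor, at 0.371, 0.498 and 0.346 CPM with EP300 KD1. With EP300 KD2 they were 0.624, 0.533 and 0.850 CPM. The 2 controls of these KLK genes also differed (log2 -0.93, -1.07 and -0.73, NS2 against NS1), and enter the difference. Among mesenchymal, matrix and TGF-beta genes, the difference on the log2 scale was negative for ZEB1 (-0.45), SNAI1 (-0.64), ETS1 (-0.15), FN1 (-1.67), VIM (-0.67), TIMP1 (-0.88), TIMP3 (-0.38), TGFBI (-0.86), TGFB1 (-0.82), LTBP1 (-1.79), DCN (-1.32) and C1R (-1.57). It was positive for TGFB2 (0.27), CCN2 (1.75) and FBLN1 (0.54). For CCN2 and FBLN1 the 2 controls differed as well (log2 -1.13 and -0.98, NS2 against NS1). Among inflammatory, interferon and other cell type genes, the difference on the log2 scale was negative for TNFAIP6 (-4.17), IL6 (-1.43), ICAM1 (-1.38), GBP2 (-0.94), FPR1 (-3.19), CD14 (-0.97), CD68 (-1.30) and PECAM1 (-1.24). It was positive for TUBB3 (0.49). Among cell cycle, p53 and chromatin genes, the difference on the log2 scale was negative for SESN2 (-0.21) and EP300 (-0.18). It was positive for GINS1 (1.43), POLE2 (1.42), BUB1 (0.35), CKAP2 (0.33), CDC25C (0.22), CITED4 (0.34) and HDAC9 (0.62). Among genes of signalling, stress and metabolism, the difference on the log2 scale was negative for MT2A (-0.13), DDIT4 (-0.19), PYGB (-0.43), ALOX15B (-2.91), LRP1 (-1.94), AKR1B10 (-0.74), SLC7A11 (-0.18), FTL (-0.40), DDIT3 (-0.36), INSIG1 (-0.34), ENO2 (-0.77), SLC2A3 (-1.80), NDRG1 (-1.92), HBEGF (-0.94), EGR1 (-0.12), ERRFI1 (-0.34), BTC (-0.56), JAG1 (-0.42), MAML2 (-0.48), MAML1 (-0.29) and FZD2 (-0.29). It was positive for HSPA8 (0.37), SLC7A5 (0.25), IDI1 (0.24), DUSP4 (0.28) and WNT7B (0.66). A negative value means a larger gain with EP300 KD1 where both hairpins raised the gene, and a larger loss with EP300 KD2 where both lowered it. The widest separations were those of TNFAIP6, FPR1 and ALOX15B. The controls of TNFAIP6 were near the floor, with means of 0.343 CPM in NS1 and 0.752 in NS2. They differed (log2 1.14, NS2 against NS1) and enter the difference, as do those of IL6 (log2 0.61). With library totals in place of TMM scaling, chosen after the values were seen, the difference was no longer called for 9 of the genes, EP300 (-0.11, edgeR adjusted p = 0.063) and ZEB1 (-0.38, edgeR adjusted p = 0.057) among them. It became called for 9 others, FSTL1, FST and LCN2 among them.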

How the results depend on the processing

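No alternative moved a count of calls by more than 1.5 times. The pooled knockdown effect (6788 genes) ran from 6355 to 6684 when each library was left out in turn, the pooled effect beyond 1.5-fold (1249) from 1193 to 1258, the common response (4380) from 4157 to 4332 and the hairpin difference (6818) from 6405 to 6711. Deviations of same-numbered libraries correlated between -0.105 and 0.0724, so the numbers do not pair them. With the replicate block the counts were 5549, 1049, 4294 and 6692. Without the set term the pooled test called 5842 genes, and as the average of both within-set contrasts 8821. DESeq2 called 6920 and limma-voom 6847. The common response held 4232 genes with each hairpin against the control of the other number, of which 3566 were in the main set, and 4967 with all 6 controls. Upper-quartile factors and library totals raised the median change of all genes by about 0.034 and gave 3993 and 3968 gains, and the p53 list's median turned from -0.01 to 0.03. Of 2952 recomputed pooled changes of 123 genes (those described and 2 not reported here), 2948 kept direction and call. EGLN3 was no longer called without the set term (edgeR adjusted p = 0.145), and ALOX15B, FPR1 and CCN2 became called as the average of both contrasts. With 2 hairpins of 1 line each, the number of lines limits what the pooled p-values can speak for.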

Other observations

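Genes in the neighbouring runs that belong to none of the lists were looked at after their values were seen, and the values are given without a test beyond the fit over all genes. CTSD, the lysosomal protease cathepsin D, averaged 829.5 CPM in the 6 control libraries and 287 in the 6 EP300 hairpin libraries (pooled log2 change -1.56 ± 0.08, SE), and UNC5B, a netrin receptor, averaged 86.5 and 14.9 CPM (-2.58 ± 0.08). HMGA2, an architectural chromatin protein of the embryo and of tumours, averaged 46.1 CPM in the controls and 196 with a hairpin (2.03 ± 0.23), with log2 changes of 2.78 with EP300 KD1 and 1.29 with EP300 KD2. Its neighbour RPSAP52 overlaps HMGA2 on the chromosome, so reads of the pair cannot be told apart where the counting did not use strand. LRAT, which esterifies retinol, averaged 88.9 and 40.6 CPM (-1.14 ± 0.04), and PLAAT3, a phospholipase and acyltransferase, averaged 42.4 and 13.2 CPM (-1.69 ± 0.06). These 5 genes were in the common response, and 4 of them fell.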
